A study of Mus musculus with 23 samples.

Results

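The mouse loci Sgk1, Atxn2l and Aurka were examined for RNA fragments recovered near the 3′ end of the gene by CLIP-seq, in which RNA crosslinked to a protein is precipitated with it and sequenced. The 3 loci were chosen from 8 regions, among 2357 tested across the genome, called lower with cycloheximide than without it in the Upf1 libraries. Those Upf1 values, with cycloheximide and without, chose the members, so they are given here as a description with no test. Each locus is a window on the strand of the gene in mouse build mm9, divided into a peak near its 3′ end and the rest of the window. Of 366484 distinct alignments in the series, 302 lay in these windows, 138 at Sgk1, 106 at Atxn2l and 58 at Aurka. The gene symbols came with the windows. The deposited alignments carry no gene names and no mm9 annotation was at hand, so exons and untranslated regions were not assigned, and the embryonic stem cell identity was not checked against marker genes.

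The cells were v6.5 mouse embryonic stem cells, freed of their feeder fibroblasts and then irradiated with ultraviolet light at 400 mJ/cm2 in every group. The groups were Upf1 immunoprecipitation after 2 hours in 100 µg/ml cycloheximide (libraries A1 and A2), Upf1 without treatment (A1, A2 and I), control rabbit IgG after the same cycloheximide treatment (A1 and A2), and IgG without treatment (A1, A2 and I). Whether the libraries of a group stem from separate cultures is not stated, and p-values here cover the spread between libraries alone, which may be technical. Distinct alignments numbered 31792 and 34220 in Upf1 cycloheximide, 20449 to 97651 in Upf1 untreated, 7215 and 19711 in IgG cycloheximide, and 8271 to 47670 in IgG untreated libraries.

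Upf1 is an RNA helicase required for nonsense-mediated mRNA decay. It binds RNA widely, and ribosomes moving through a coding sequence can remove it, so that it is known for its occupancy of untranslated RNA downstream of stop codons. Cycloheximide stops ribosomes during elongation. Sgk1 encodes a serine/threonine kinase induced by serum and glucocorticoids that acts on ion transport and cell survival. Atxn2l encodes the ataxin-2-like protein, an RNA-binding component of stress granules. Aurka encodes Aurora A, a kinase of centrosomes and of the mitotic spindle.

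Several libraries shared many of their positions with other libraries, and this bears on every IgG comparison below. A position is 1 start and end on 1 strand. Of all positions, 92.5% in IgG cycloheximide A1, 89.5% in IgG cycloheximide A2 and 97.0% in IgG untreated A2 were also present in another library. In Upf1 cycloheximide A1 and A2 and Upf1 untreated A2 these shares were 35.5 to 44.1%, and in the other 4 libraries 2.62 to 9.78%. IgG cycloheximide A1 shared 42.1% and 52.0% of its positions with Upf1 cycloheximide A1 and A2. IgG cycloheximide A2 shared 34.3% and 38.2% with Upf1 cycloheximide A1 and A2, 22.2% with Upf1 untreated A2 and 27.4% with IgG untreated A2.

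All 3 peaks were empty in both Upf1 cycloheximide libraries and occupied in each of the 3 Upf1 untreated libraries. Together the 3 loci held 0 peak alignments and 18 others in Upf1 cycloheximide, against 186 and 36 in Upf1 untreated. Peaks in untreated cells were recovered with control IgG too, with 43 alignments, most of them in library I. IgG cycloheximide held 7 peak alignments, all in library A2, and each of these lay at a position that was also present in an untreated A2 library.

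The Sgk1 peak lies on the plus strand at chr10:21718652-21719612, 961 nt long, inside a window of chr10:21602000-21720000. It held 0 and 0 alignments in Upf1 cycloheximide A1 and A2, against 37, 5 and 39 in Upf1 untreated A1, A2 and I. Per 100000 distinct alignments of the library these were 0 and 0 against 37.9, 24.5 and 43.7, a mean of 35.4 ± 9.88 (SD, n = 3) in Upf1 untreated. The Upf1 groups did not overlap, but every cycloheximide library lay below every untreated one in 23.3% of the 2357 regions. A count of 0 allows up to 9.44 and 8.77 per 100000 in the cycloheximide libraries, taking 3 counts as its limit. The pooled Upf1 untreated rate of the Sgk1 peak was 8.60-fold that of 3 counts over both cycloheximide libraries. This fold describes the contrast that chose the members. It leaves out the counting error of the untreated rate and the spread between libraries, so it is not a lower limit of a change. At the untreated rate, the cycloheximide libraries would have held 25.8 alignments. The fold depends on the depth of both cycloheximide libraries, and it was 4.46-fold without A1 and 4.14-fold without A2.

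Control IgG recovered the Sgk1 peak unevenly. The counts were 0 and 3 in IgG cycloheximide A1 and A2, against 0, 3 and 19 in IgG untreated A1, A2 and I. As rates these were 0 and 15.2 per 100000 against 0, 36.3 and 39.9, so the IgG groups overlapped at 0. In IgG cycloheximide A1, the shallowest library, a count of 0 allows up to 41.6 per 100000. The ratio of pooled rates was 0.335, with an exact 95% counting interval of 0.0643 to 1.12. A pooled rate lower with cycloheximide, which all 3 peaks had in IgG, was found in 59.2% of the 2357 regions.

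The Atxn2l peak lies on the minus strand at chr7:133635303-133636258, 956 nt long, inside a window of chr7:133635000-133647500. Counts were 0 and 0 in Upf1 cycloheximide A1 and A2, against 55, 4 and 11 in Upf1 untreated A1, A2 and I. The rates were 0 and 0 per 100000 against 56.3, 19.6 and 12.3, a mean of 29.4 ± 23.6 (SD, n = 3) in Upf1 untreated. Upf1 untreated A1 stood well above the other two, but the Upf1 groups did not overlap. Computed as at Sgk1, the pooled untreated rate was 7.43-fold that of 3 counts, and 22.3 alignments would have been held at the untreated rate. Without Upf1 untreated A1 the untreated libraries held 15 alignments, this ratio was 3.01-fold and the number at the untreated rate 9.03. Without Upf1 cycloheximide A1 the ratio was 3.85-fold, and without Upf1 cycloheximide A2 it was 3.58-fold.

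In the IgG libraries the Atxn2l peak held 0 and 2 alignments with cycloheximide (A1 and A2), against 2, 1 and 9 without (A1, A2 and I). These came to 0 and 10.1 per 100000 against 19.4, 12.1 and 18.9. Both IgG cycloheximide libraries thus lay below the 3 untreated ones, the lowest of which was A2 at 12.1 on a single alignment. Such an order was found in 2.46% of the 2357 regions, but a region with 0 in any IgG untreated library cannot show it. Here the 0 of IgG cycloheximide A1 allows up to 41.6 per 100000, so the order is not established. The 2 alignments of IgG untreated A1 stood for 117 deposited lines with 7 combinations of position and random adapter letters, and all lines at 1 position were counted once here. A ratio of 2 to 12 counts gave 0.410 for the pooled rates, with a counting interval of 0.0446 to 1.84.

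The Aurka peak lies on the minus strand at chr2:172181635-172182204, 570 nt long, inside a window of chr2:172181000-172197000. It held 0 and 0 alignments in Upf1 cycloheximide A1 and A2, against 17, 9 and 9 in Upf1 untreated A1, A2 and I. The rates were 0 and 0 per 100000 against 17.4, 44.0 and 10.1, a mean of 23.8 ± 17.9 (SD, n = 3) in Upf1 untreated. Here Upf1 untreated A2, the shallowest Upf1 library, was the highest. Computed as at Sgk1, the pooled untreated rate was 3.71-fold that of 3 counts, and 11.1 alignments would have been held at the untreated rate. Without Upf1 cycloheximide A1 that ratio was 1.93-fold, and without Upf1 cycloheximide A2 it was 1.79-fold.

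Aurka in the IgG libraries held 0 and 2 peak alignments with cycloheximide (A1 and A2), against 0, 2 and 7 without (A1, A2 and I). The rates were 0 and 10.1 per 100000 against 0, 24.2 and 14.7, and the groups overlapped at 0. The ratio of pooled rates was 0.547, with a counting interval of 0.0575 to 2.64.

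**Figure D1:**
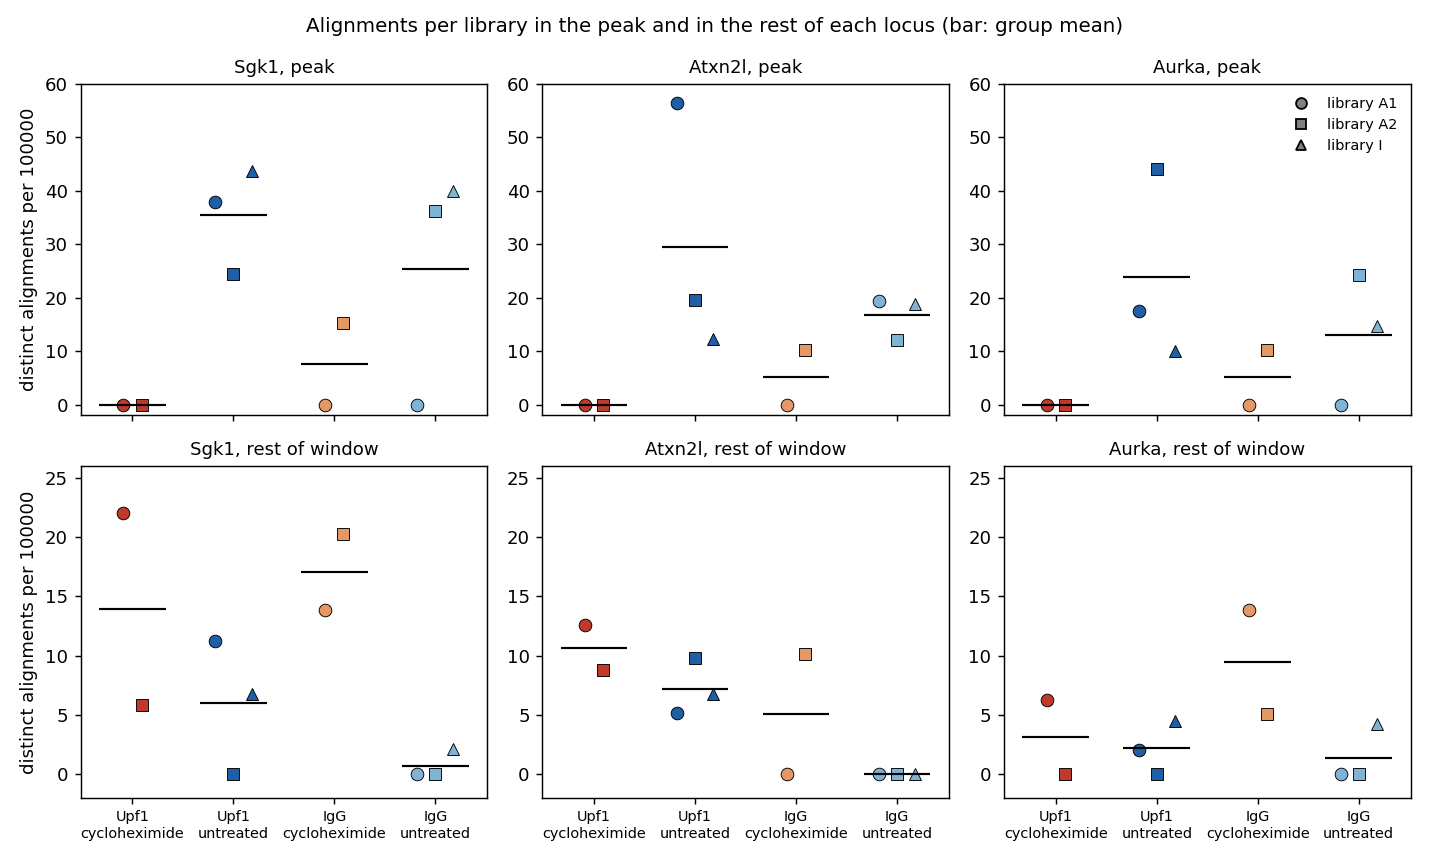
Distinct alignments per 100000 of each library in the peak (top row) and in the rest of the window (bottom row) of Sgk1, Atxn2l and Aurka, with 1 symbol per library and a bar at the group mean. The Upf1 cycloheximide libraries lie at 0 in every peak, and the Upf1 untreated libraries lie between 10.1 and 56.3.

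An empty peak was not in itself rare. Of the 2357 regions tested, 33.5% held no alignment in either Upf1 cycloheximide library, and in 23.3% every cycloheximide library lay below every untreated one. Among the 170 regions with at least 35 Upf1 untreated alignments, the smallest number held by any of the 3 peaks, 17 were empty with cycloheximide. Limma-voom called 0.339% of regions lower, 8 in all, with the 3 peaks among them by the choice of members. That count moved in both directions with the processing. It was 43 with scaling by library totals, 26 without IgG untreated I and 65 without IgG untreated A1. It was 1 to 3 with distinct molecules counted, without molecules found in more than 1 library, with a trended prior, with regions merged at 20 nt, and without Upf1 untreated A2 or I. It was 0 without Upf1 cycloheximide A1, Upf1 cycloheximide A2 or Upf1 untreated A1, or without positions found in more than 1 library (87, 107, 61 and 190 at an unadjusted limma p under 0.05). It was also 0 with every line counted, with 38 nt reads only and with no filter on regions (73, 12 and 14417 at that unadjusted p). The log2 changes, cycloheximide over untreated scaled by TMM, a trimmed mean of log ratios, were -4.35 ± 1.03 (SE) at Sgk1, -3.86 ± 1.04 at Atxn2l and -3.57 ± 1.04 at Aurka, against a median of -0.65 over all regions. Just inside the threshold of that call, an adjusted p of 0.05, lay regions at chr4:131887844-131888763 (minus strand, log2 change -3.52) and chr2:31536184-31536671 (plus strand, -3.41). Just outside lay chr11:55313552-55314328 (plus strand, -3.30) and chr7:125262660-125262999 (minus strand, -3.29).

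Libraries also differed in read length and in fragment length, and both moved with treatment. Reads reached 38 nt in all 4 cycloheximide libraries and in 3 untreated ones, and 34 nt in the remaining untreated libraries, which were both deep Upf1 ones (A1 and I) and the deepest IgG one (I). Upf1 untreated A2, the only untreated Upf1 library with 38 nt reads, held 5 alignments in the Sgk1 peak, 4 in the Atxn2l peak and 9 in the Aurka peak, where the cycloheximide libraries held 0. Of these, 4 of 5, 3 of 4 and 4 of 9 lay at positions also found in another library. Alignments shorter than 30 nt made up 50.4% and 52.3% of the Upf1 cycloheximide libraries, against 12.2 to 31.4% of the Upf1 untreated ones. In the untreated Upf1 peaks of Sgk1, 7 of 37, 1 of 5 and 4 of 39 alignments were that short in A1, A2 and I. At Atxn2l the numbers were 6 of 55, 1 of 4 and 1 of 11, and at Aurka 5 of 17, 6 of 9 and 2 of 9. Their part in the empty peaks was not tested. The rates are shares of a library. They cannot tell apart less recovery per RNA from a smaller share of RNA of the gene. Such a smaller share could come from fewer cells with that RNA or from less of it per cell.

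The members were chosen by the Upf1 contrast, but the regions were merged, filtered and fitted over all 10 libraries, IgG included. Alignments of IgG untreated I set 1 edge of each of the 3 peaks. The IgG cycloheximide libraries also share many positions with the Upf1 cycloheximide libraries that the choice used. A region empty in Upf1 cycloheximide can hold none of these shared positions, so the IgG contrast is not independent of the choice of members. After TMM scaling the log2 change, IgG cycloheximide over IgG untreated, was -1.04 ± 1.12 (SE) at Sgk1, -1.28 ± 1.08 at Atxn2l and -0.68 ± 1.05 at Aurka, against a median of -0.22 over all regions. No peak was called, and the limma-voom p adjusted over the 2357 regions was 0.868 at every peak. The unadjusted limma p-values were 0.350, 0.236 and 0.515. In this contrast 0.0424% of regions were called lower and 0.00% higher. At an unadjusted limma p under 0.05, 39 regions were lower and 117 higher, and limma with a trended prior called 0 in either direction. A log2 change below 0, which all 3 peaks had, was found in 61.4% of regions. A p that misses the threshold does not show that the peaks were alike in the IgG groups: the 7 counts with cycloheximide leave wide intervals.

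Single IgG libraries turned these values. Without IgG cycloheximide A2 the log2 changes were -2.29 at Sgk1, -2.28 at Atxn2l and -1.66 at Aurka (adjusted p = 0.947 each, limma). Without IgG cycloheximide A1 they were 0.42, -0.05 and 0.57, so the direction at Sgk1 and Aurka reversed. Leaving out IgG untreated A1 gave -2.42, -1.55 and -1.75, leaving out IgG untreated A2 gave -0.53, -1.52 and -0.09, and leaving out IgG untreated I gave -0.24, -0.83 and -0.24. The smallest adjusted p over these and all other settings was 0.521, at Sgk1 without IgG untreated A1. Whether the change differed between Upf1 and IgG was not tested, since the Upf1 change chose the members.

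**Figure D2:**
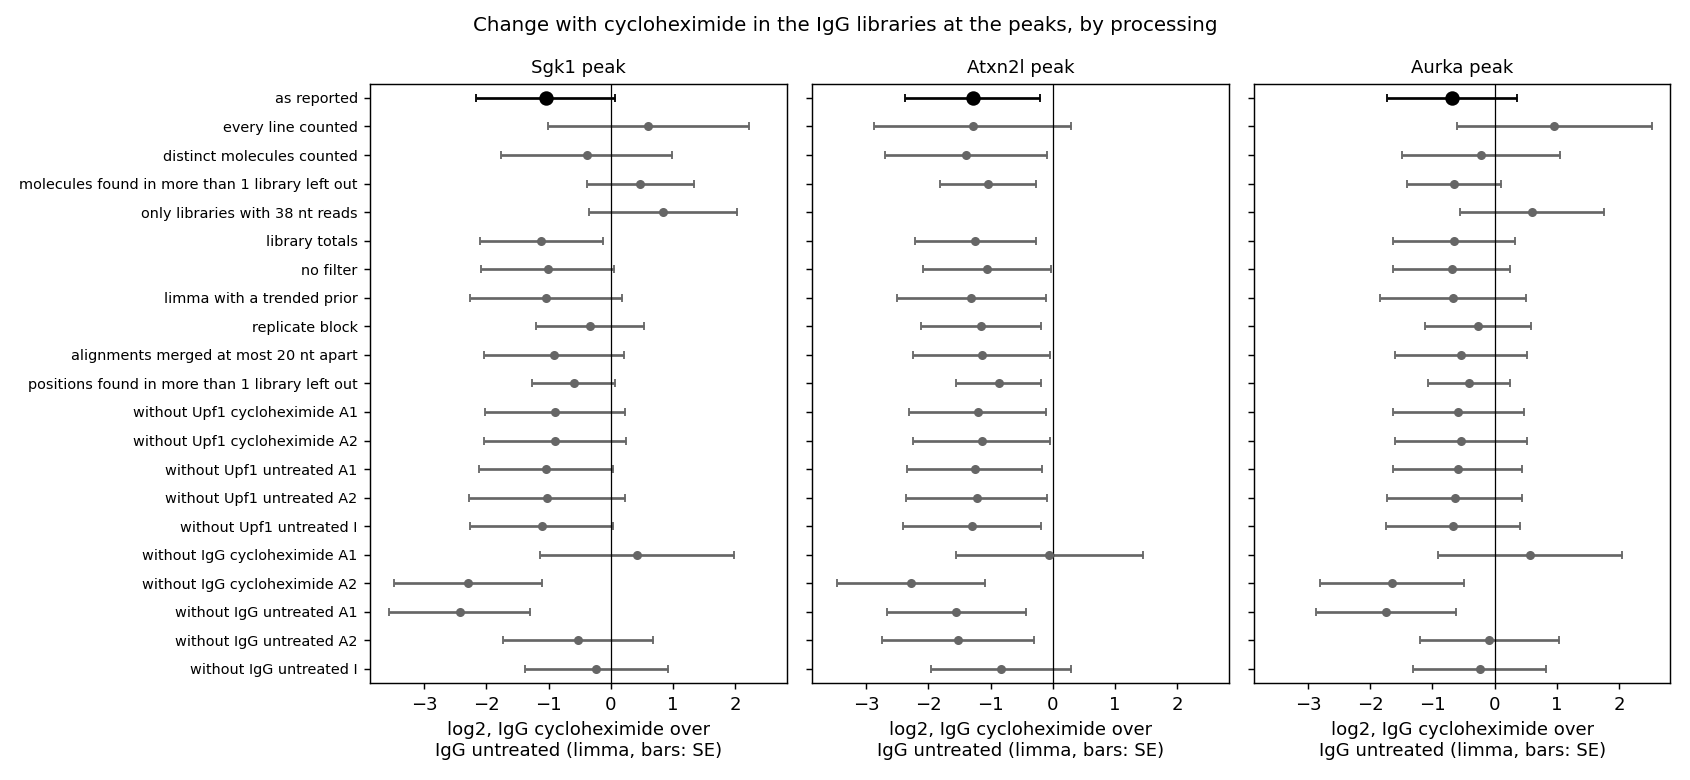
Log2 change of each peak, IgG cycloheximide over IgG untreated, as reported (black) and under each alternative (grey), with bars for the SE. The Atxn2l values lie below 0 in every setting shown, from -2.28 to -0.05, whereas Sgk1 and Aurka have values on both sides of 0.

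The 7 peak alignments of IgG cycloheximide A2 all lay at positions of other libraries, as did 89.5% of all positions of that library. At Sgk1 the 3 alignments, at Atxn2l the 2 and at Aurka the 2 lay at positions that were also present in an untreated A2 library, and at each of the 7 positions the random letters matched another library too. The number of these positions found in a Upf1 untreated library was 7 and in an IgG untreated library 5. None could be found in Upf1 cycloheximide, whose empty peaks chose the members. In the rest of the windows, of 7 alignments in IgG cycloheximide A2, 6 lay at a position of a Upf1 cycloheximide library, 1 of which was also a position of an untreated library. Among all 9 alignments of the rest in the IgG cycloheximide libraries, 8 lay at a position of a Upf1 cycloheximide library.

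With positions found in more than 1 library left out, a setting added after the data had been seen, the peaks held 0 alignments in Upf1 cycloheximide and 154 in Upf1 untreated, and 0 in IgG cycloheximide and 30 in IgG untreated. This setting removed 92.5% and 89.5% of the positions of IgG cycloheximide A1 and A2, against 9.78% of those of IgG untreated I. The 0 in IgG cycloheximide thus rests on few remaining alignments and says little. Sgk1 then had 68 peak alignments in Upf1 untreated and 16 in IgG untreated, Atxn2l 58 and 7, and Aurka 28 and 7. The log2 change in IgG was -0.60 at Sgk1, -0.87 at Atxn2l and -0.42 at Aurka (adjusted p = 0.931 each, limma). How shared positions arose was not tested.

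In untreated cells the peaks were recovered with either antibody, but with IgG mostly in library I. IgG untreated I held 19 of 22 IgG untreated alignments at Sgk1, 9 of 12 at Atxn2l and 7 of 9 at Aurka. IgG untreated A1 held 0 at Sgk1 and Aurka and 2 at Atxn2l. The 3, 1 and 2 alignments of IgG untreated A2 all lay at positions also found in a Upf1 untreated library. At Sgk1 the Upf1 untreated mean was 35.4 ± 9.88 and the IgG untreated mean was 25.4 ± 22.0 per 100000 (SD, n = 3 each). At Atxn2l these were 29.4 ± 23.6 and 16.8 ± 4.08, and at Aurka 23.8 ± 17.9 and 12.96 ± 12.2. The groups overlapped at every locus. No test was made, because high values in Upf1 untreated helped to choose the members.

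Along the peaks the alignments were spread, and their distribution differed between libraries of the same group. Over all libraries, alignments covered 93.9% of the Sgk1 peak, 87.0% of the Atxn2l peak and 70.2% of the Aurka peak. The peaks were made by merging alignments at most 50 nt apart, so longer gaps could not occur in them. In the Sgk1 peak, 32 of 37 alignments of Upf1 untreated A1 had their midpoint 5′ of the centre of the peak, against 16 of 39 in Upf1 untreated I and 9 of 19 in IgG untreated I. The median distance from the 3′ edge of the peak was 640.5 nt in Upf1 untreated A1, 453.5 nt in Upf1 untreated I and 437.5 nt in IgG untreated I. At Sgk1 both libraries labelled I thus lay farther toward the 3′ edge than Upf1 untreated A1. In the Atxn2l peak the 5′ side of the centre held 27 of 55 alignments in Upf1 untreated A1, 7 of 11 in Upf1 untreated I and 6 of 9 in IgG untreated I. The median distances there were 473.5, 609.5 and 556.5 nt, so at Atxn2l the order was the reverse.

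In the Aurka peak the alignments gathered more tightly. The 5′ side of the centre held 16 of 17 in Upf1 untreated A1 and 9 of 9 in Upf1 untreated A2, but 5 of 9 in Upf1 untreated I and 5 of 7 in IgG untreated I. A single 5′ end, at position 172182076 of chromosome 2, was used by 10 of the 46 alignments over all libraries, which came from 4 libraries. It lay 441 nt from the 3′ edge of the peak, and 16 alignments began within 10 nt of it. At Sgk1 the most used 5′ end, position 21718957 of chromosome 10, held 6 of 106 alignments from 5 libraries. At Atxn2l, position 133635516 of chromosome 7 held 4 of 84 from 3 libraries. These counts include positions shared between libraries.

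**Figure D3:**
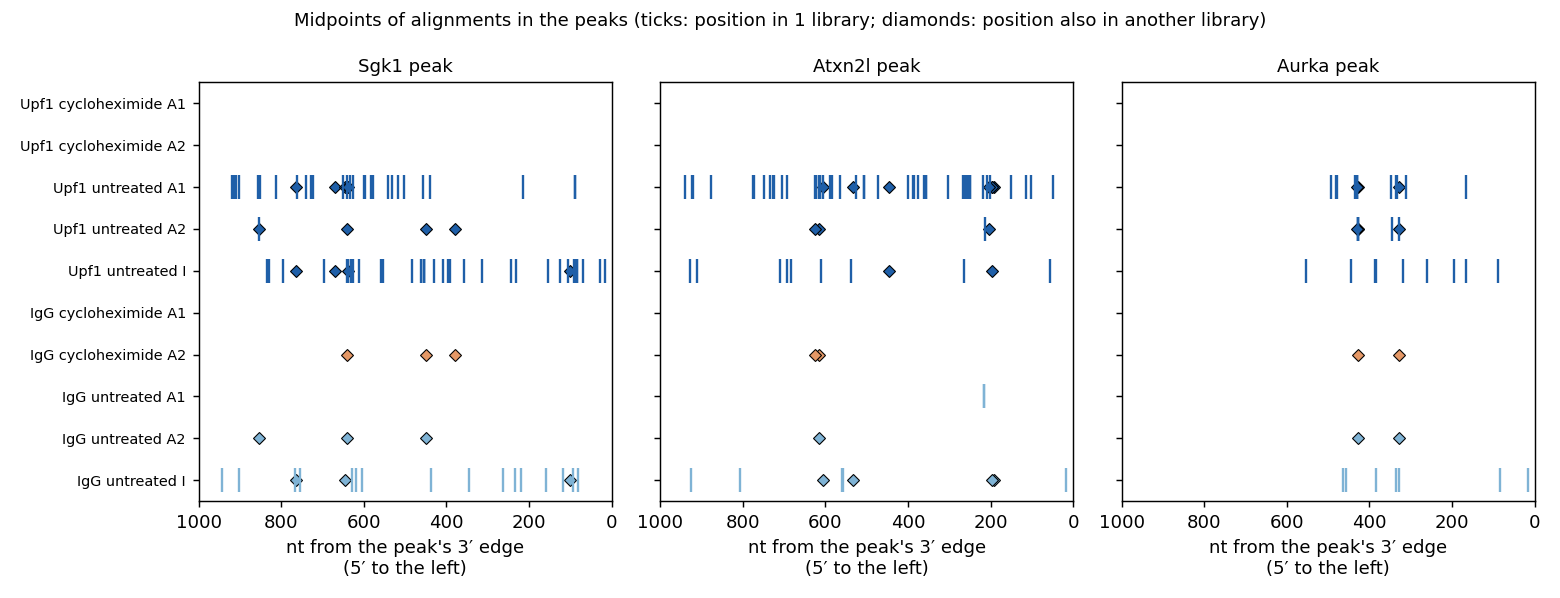
Midpoint of each distinct alignment in the peaks, as nt from the 3′ edge of the peak with the 5′ side to the left, by library; ticks are positions found in 1 library and diamonds positions also found in another. Both Upf1 cycloheximide rows are empty, and all 7 IgG cycloheximide A2 points are diamonds.

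The rest of each window, on the same strand, was covered thinly. Sgk1 held 7 and 2 alignments there in Upf1 cycloheximide A1 and A2, against 11, 0 and 6 in Upf1 untreated A1, A2 and I. As rates these were 22.0 and 5.84 per 100000 against 11.3, 0 and 6.73, and the groups overlapped. The pooled rate was 1.66 times the untreated one, with a counting interval of 0.653 to 3.94.

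Atxn2l held 4 and 3 alignments outside the peak in Upf1 cycloheximide A1 and A2, against 5, 2 and 6 in Upf1 untreated A1, A2 and I. The rates were 12.6 and 8.77 per 100000 against 5.12, 9.78 and 6.73. They overlapped between the groups, with a ratio of 1.69 and a counting interval of 0.571 to 4.56. Aurka held 2 and 0 in Upf1 cycloheximide, against 2, 0 and 4 in Upf1 untreated, with a ratio of 1.05 and a counting interval of 0.103 to 5.85. Both Aurka alignments in Upf1 cycloheximide lay at positions also found in another library. At Aurka the counting interval spanned changes of several fold in either direction. At Sgk1 and Atxn2l the intervals reached increases of several fold but no such decrease. They cover counting error only, not the spread between libraries, and these values come from the contrast that chose the members.

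The share of a locus that lay in its peak was therefore 0 of 9 alignments at Sgk1, 0 of 7 at Atxn2l and 0 of 2 at Aurka in Upf1 cycloheximide. In Upf1 untreated it was 81 of 98 (82.7%, exact 95% interval 73.7 to 89.6%), 70 of 83 (84.3%, 74.7 to 91.4%) and 35 of 41 (85.4%, 70.8 to 94.4%). These intervals pool the alignments of the libraries and do not cover the spread between libraries. In Upf1 untreated A1, A2 and I the share was 77.1%, 100% and 86.7% at Sgk1, and 91.7%, 66.7% and 64.7% at Atxn2l. At Aurka it was 89.5%, 100% and 69.2%. The counts of 0 allow a share of up to 33.3% at Sgk1 and 42.9% at Atxn2l, and set no useful limit at Aurka. In IgG cycloheximide the shares were 3 of 8, 2 of 4 and 2 of 4, against 22 of 23, 12 of 12 and 9 of 11 in IgG untreated. With only the libraries with 38 nt reads, the difference in share was -100 percentage points at Sgk1 and -66.7 at Atxn2l, in place of -82.7 and -84.3.

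Per length, the density of alignments was far higher in the peak than in the rest in untreated cells. The peaks are merged regions of these same alignments, chosen for high Upf1 untreated values, so a higher density there was set by the choice. The values are a description. In Upf1 untreated the pooled rate per 100000 and per kb was 40.7 in the peak and 0.0701 in the rest at Sgk1, 35.3 and 0.543 at Atxn2l, and 29.6 and 0.188 at Aurka. The rest of the windows may include introns, whose extent was not known here. In Upf1 cycloheximide the rest held 0.116 at Sgk1, 0.919 at Atxn2l and 0.196 at Aurka per 100000 and per kb.

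Alignments of the rest lay throughout the windows. With cycloheximide in Upf1 they lay 1465 to 108954 nt 5′ of the Sgk1 peak, 2636.5 to 8468 nt 5′ of the Atxn2l peak, and at 501 and 10449 nt 5′ of the Aurka peak. In Upf1 untreated the nearest lay 302.5, 338.5 and 83.5 nt 5′ of the peaks. On the 3′ side, 1 alignment in Upf1 cycloheximide and 1 in Upf1 untreated lay beyond the Sgk1 peak, and none lay beyond the others in any library. No peak alignment was spliced in any library.

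Spliced alignments, taken as those spanning more than 60 nt, were found at Atxn2l alone among the 3 loci. They numbered 2 in Upf1 cycloheximide A1, 1 in Upf1 untreated A1 and 0 in the other 8 libraries. The 2 cycloheximide alignments spanned 429 nt at chr7:133639385-133639813 and 107 nt at chr7:133644673-133644779, both inside the gene window. The untreated one spanned 196 nt at chr7:133636499-133636694, only 241 nt 5′ of the peak. Of the 18 alignments of the rest in Upf1 cycloheximide, 10 lay at positions found in no other library and 1 lay at a position of a Upf1 untreated library.

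**Figure D4:**
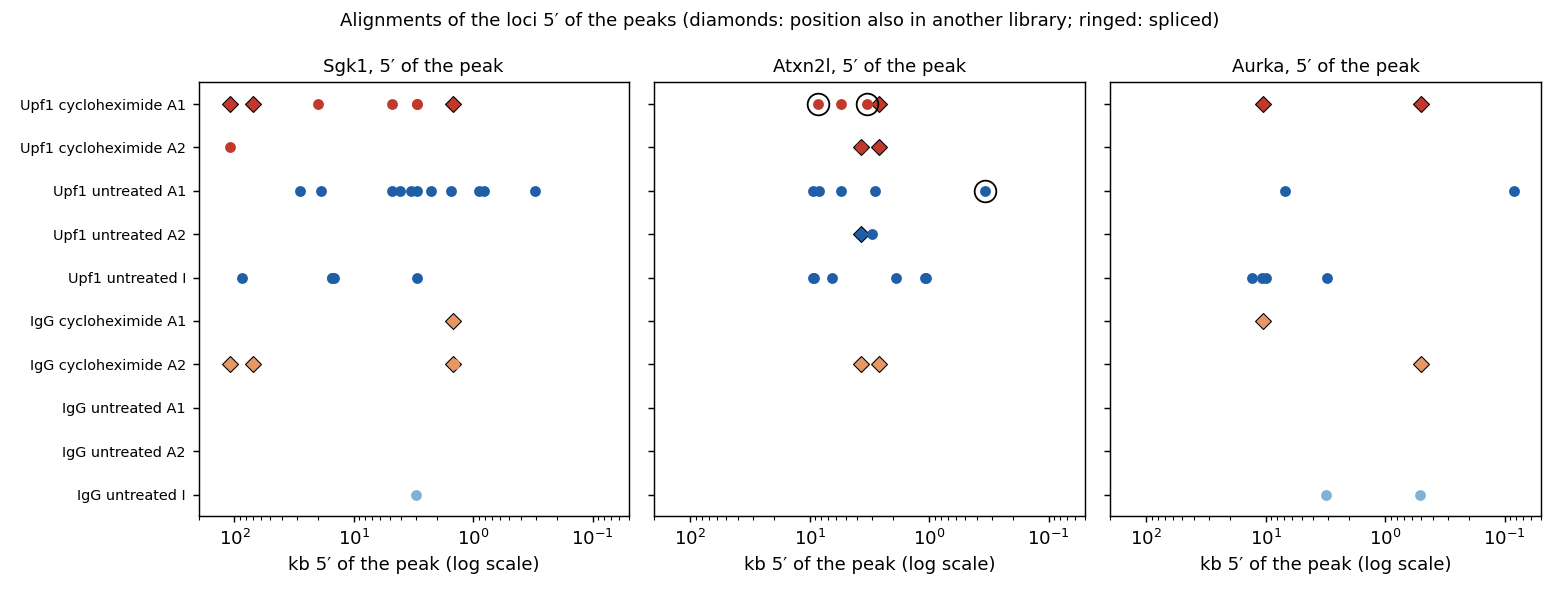
Alignments of the rest of each window that lay 5′ of the peak, by library, as kb from the peak on a log scale with the 5′ side to the left; diamonds mark positions also found in another library and rings spliced alignments. Both Upf1 cycloheximide libraries hold points at Sgk1 and Atxn2l, and of the IgG untreated libraries only I holds any.

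Upf1 was compared with IgG in the rest of the windows, a part and a contrast that the choice of members did not use directly. High Upf1 untreated values helped to choose the members, however, and the rest belongs to the same genes and libraries. Upf1 values in the rest may thus be raised by the choice, so the p-values are not clear of it. At Atxn2l the Upf1 libraries averaged 8.60 ± 2.87 per 100000 and the IgG libraries 2.03 ± 4.54 (SD, 5 libraries each). The difference was 6.57 (exact two-sided permutation p = 0.0333, antibody labels permuted within treatment, smallest possible p = 0.0167), and Upf1 was above 0 in 5 of 5 libraries and IgG in 1 of 5. At the Upf1 mean rate, IgG cycloheximide A1 would have held 0.620 alignments, IgG untreated A1 0.885 and IgG untreated A2 0.711, so a 0 in these says little. IgG untreated I, also at 0, would have held 4.10. This p is not adjusted, and 3 loci were tested. It reached only 0.05 (exact permutation) with unspliced alignments alone and without any single one of Upf1 cycloheximide A1, IgG cycloheximide A1 or an IgG untreated library. At Sgk1 the rest held 9.17 ± 8.22 in Upf1 and 7.25 ± 9.29 in IgG, a difference of 1.92 (exact permutation p = 0.633). At Aurka it held 2.56 ± 2.78 in Upf1 and 4.63 ± 5.67 in IgG, a difference of -2.06 (exact permutation p = 0.55).

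The profiles of the 3 peaks over the 10 libraries are alike in part by choice, since the members had to be low in the 2 Upf1 cycloheximide libraries and high in the 3 Upf1 untreated ones. On log2(rate + 1), Pearson's r was 0.95 between Sgk1 and Aurka, 0.76 between Sgk1 and Atxn2l and 0.75 between Aurka and Atxn2l, as a description over libraries that share positions and treatment. Among 412 regions with at least 30 alignments, those most like the mean of the 3 peaks were chr11:115505373-115505975 (r = 0.98), chr9:110842896-110843175 (r = 0.97) and chr2:152163300-152163874 (r = 0.97), all on the minus strand. Each held 0 alignments in Upf1 cycloheximide, against 23, 23 and 22 in Upf1 untreated, and 1 in IgG cycloheximide, against 6, 6 and 8 in IgG untreated.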

How the data were processed

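The 10 CLIP-seq libraries of the series were used. The 10 mRNA-seq and 3 ribosome footprinting samples were not analysed here. The deposited files list 1 alignment per line on mm9, per the labels, without a header. Bowtie 0.12.6, TopHat 1.4.0 and Cufflinks 1.3.0 are listed, with no role given, per the submitters' processing notes. The deposited score was constant in every line and was not used. The name column of the deposited lines ends in 2 letters, and the adapter carried 2 random nucleotides meant for removing amplification copies, per the labels.

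Each distinct alignment (chromosome, start, end, strand) was counted once per library and assigned to a peak or the rest by its midpoint. Rates are per 100000 distinct alignments. Intervals and limits of 3 counts cover counting error only. For the test over regions, unspliced alignments at most 50 nt apart were merged. Of 203521 regions, 2357 held at least 10 alignments over all libraries together and were present in at least 3 libraries. These tallies were fitted with limma-voom (limma 3.58.1, R 4.3.3) in a model of the 4 groups, with TMM scaling (trims of 30% and 5%, the deepest library as the basis) and Benjamini-Hochberg adjustment over all regions. Exact permutation tests and counting intervals were computed in Python 3.11.15 with scipy 1.17.1. The test over regions was tested on simulated data, where it called few of the regions made to change in IgG, even at the largest folds, so a missing call in IgG carries little weight. The 3 members, the lists and the tests were chosen with earlier results of these data known. The related genes planned for description were not located without an mm9 annotation. Like regions were named by the highest Pearson correlation with the mean peak profile.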

Additional observations from a re-analysis of the deposited data

How the results depend on the processing

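The difference in the share of a locus in the peak (Upf1 cycloheximide minus untreated) cannot change sign, since the cycloheximide peaks are empty by the choice of members. With 38 nt reads only, its value was -100 points at Sgk1 and -66.7 at Atxn2l, and with single libraries left out it ranged from -89.4 to -65.2 at Atxn2l. It gave no value at Aurka without Upf1 cycloheximide A1 or without shared positions, since no alignment was left.

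In IgG, the log2 change at the peaks reversed with every line counted (0.60 at Sgk1, 0.95 at Aurka), among libraries with 38 nt reads (0.83 and 0.60, with Atxn2l below the filter) and, at Sgk1, without molecules found in more than 1 library (0.47). The median of all regions was 1.24 with every line counted and 1.09 with 38 nt reads. With single libraries left out it ranged from -2.42 to 0.42 at Sgk1 and -1.75 to 0.57 at Aurka. No setting gave a call at a peak. With the replicate block (A1, A2 or I) the changes were -0.34, -1.15 and -0.27 at Sgk1, Atxn2l and Aurka, and 15 regions were called lower in Upf1. The labels do not say what these letters mark. Deviations from the group means correlated between same-labelled IgG cycloheximide and untreated libraries at 0.26 for A1 and 0.39 for A2, across regions. Between Upf1 and IgG untreated the values were -0.17 for A1, 0.42 for A2 and 0.34 for I. Between Upf1 cycloheximide and untreated they were 0.03 for A1 and for A2, and between Upf1 and IgG cycloheximide -0.001 for each. Same-labelled libraries can also share positions.

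For Upf1 against IgG in the rest, the Atxn2l difference no longer passed with the replicate block (6.57, exact permutation p = 0.125), in untreated libraries (7.21) or among libraries with 38 nt reads (7.39). The smallest possible exact permutation p-values there were 0.0625, 0.1 and 0.111, so none of these could pass. It also missed with unspliced alignments alone (5.20), and ranged from 4.98 to 8.36 with single libraries left out. It passed without shared positions (8.08, exact permutation p = 0.0167). That setting, however, removed 92.5% and 89.5% of the positions of IgG cycloheximide A1 and A2, and 97.0% of those of IgG untreated A2. Both Atxn2l alignments of the rest in IgG cycloheximide A2 were among those removed, so this p says little. Differences that did not pass reversed at Sgk1 among libraries with 38 nt reads (-1.80), without shared positions (-0.29) and over single libraries left out (-0.21 to 5.18), and at Aurka in untreated libraries (0.78), with every line counted (0.0540) and without shared positions (0.44). The cause was not tested. Depth limits all of these: the rest of a window held 0 to 11 alignments per library.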

Other observations

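On the opposite strand the 3 windows held 3 alignments in all. At Sgk1 there was 1, in Upf1 cycloheximide A1, outside the peak. At Atxn2l there was 1 in Upf1 cycloheximide A2 and 1 in IgG untreated A2, both in the span of the peak, and at Aurka there were 0. In RefSeq (GRCm38.p6, used for names only) the annotation of Sgk1 overlaps Gm46215 and the pseudogene Gm18511, that of Atxn2l overlaps 4930456A14Rik and has Tufm beside it, and that of Aurka overlaps Cstf1 and has Fam210b beside it. Alignments in the windows were counted by strand, and none was assigned to these neighbours.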
